A study of Mus musculus with 6 samples.

Results

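The 6 connexin genes described here, Gja1, Gja4, Gja5, Gjc1, Gjb2 and Gjc3, were taken by symbol from a deposited table of 19423 genes, and all 6 were found in it. Their products are named Cx43, Cx37, Cx40, Cx45, Cx26 and Cx29 in the deposited annotation, in the same order. RNA had been sequenced from ovaries of female mice of the strain balb/c-nude, whose lack of a thymus lets grafted human cells survive. The tumor group held 3 libraries from mice that carried a breast tumor after injection of cells under the skin. The control group held 3 libraries from mice without a tumor, of the same strain. All 6 libraries carry the label day 80, and no label says from when that day is counted, how old the mice were or at what stage of the estrous cycle they were taken. The injected cells are written MBA-MD-231 in the cell line label of all 3 tumor libraries, whereas the treatment label reads MBA-MD-231, MBA-MD-232 and MBA-MD-233 in tumor replicates 1, 2 and 3. Nothing in the labels says that the libraries came from separate animals, so the p-values measure the spread between these samples, which may be technical.

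Connexins are membrane proteins that assemble into hemichannels, and hemichannels of neighboring cells dock into gap junctions through which ions and small molecules pass. In the mouse follicle, Cx43 couples granulosa cells to one another, and Cx37 is needed where the oocyte meets the granulosa cells around it. Cyclic GMP made in granulosa cells reaches the oocyte through these channels and holds it in meiotic arrest until luteinizing hormone (LH) acts on the follicle. Cx40 and Cx37 also join endothelial cells, Cx45 is found in vascular smooth muscle, Cx26 in epithelia, and Cx29 in myelinating glia including Schwann cells.

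In ovaries of tumor-bearing mice, the RNA of Gja1, the main connexin gene of granulosa cells, stood at 1312 ± 286 CPM, against 714 ± 139 CPM in control ovaries (SD, n = 3 each). In RNA from whole ovaries, fewer cells of a type and less RNA per cell cannot be told apart. CPM are counts relative to the library total, scaled here by TMM factors, which adjust those totals. Gja4, the connexin gene of the oocyte, stood at 26.0 ± 1.24 CPM in tumor and 26.3 ± 2.07 CPM in control (SD, n = 3 each). Gja5 and Gjc3 were on average higher in tumor but overlapped control, and Gjc1 and Gjb2 overlapped as well. None of the 6 passed edgeR's quasi-likelihood test at an adjusted p under 0.05, a threshold passed by 7.71% of the 15787 genes tested, 3.8% of them higher and 3.91% lower in tumor. Gja1 was the only one of the 6 with an unadjusted p under 0.05, as were 31% of all tested genes, and the only one called by DESeq2, which called 19.5% of genes. Log2 fold changes, given throughout as tumor over control, had a median of 0.47 over the 6 members and of -0.02 over all tested genes, and were above 0 for 4 of the 6 members and for 48.5% of all tested genes.

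The totals of estimated counts lay between 18278614 and 18482073 in tumor libraries and between 18804610 and 19238900 in control libraries. A gene with no count could still have up to 3, which is between 0.156 and 0.164 CPM before TMM scaling and covers counting error only. The granulosa marker Foxl2 stood between 155.8 and 232.4 CPM in tumor and between 163.2 and 223.6 CPM in control, and the oocyte marker Gdf9 at 122.0 CPM or more in every tumor library and 71.8 CPM or more in every control library. Both markers of ovary were thus present in all 6 libraries, although the labels enter cancer cell as the cell type of the tumor libraries. Tumor replicate 1 stood apart on the second principal component of log2 CPM, at -66.5 with the other libraries between -6.25 and 39.8. Summed adipocyte markers reached 7580 CPM in tumor replicate 1 and 3082 CPM in tumor replicate 3, against 684 CPM in tumor replicate 2 and between 491 and 698 CPM in control. Summed oviduct markers were at 1838 CPM in tumor replicate 1 and at 2065 and 1985 CPM in control replicates 1 and 2, against 114 and 29.1 CPM in tumor replicates 2 and 3 and 431 CPM in control replicate 3. Of the marker and pathway genes examined beside the connexins, none was at 0 in all libraries and 15 passed edgeR's test with all 6 libraries. Without tumor replicate 2 or 3, or without control replicate 1 or 3, none of these 15 passed, with adjusted p between 0.0613 and 0.167, and without tumor replicate 3 or control replicate 1 no gene of the whole table passed, although 3761 and 3137 genes had an unadjusted p under 0.05.

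Per length of transcript, Gja1 made up nearly all of the connexin RNA. In FPKM, the authors' unit that corrects for transcript length and sequencing depth, Gja1 was measured at 340.1, 476.6 and 494.8 in tumor replicates 1, 2 and 3 and at 185.8, 281.1 and 219.3 in control replicates 1, 2 and 3. It ranked between 117 and 165 among the 19423 genes of the tumor libraries and between 225 and 387 among those of the control libraries. Its share of the summed FPKM of all 19 connexin genes in the table was 90.6% to 93.3% in tumor and 84.4% to 88.9% in control. Gja4 came next among the 6, with 16.2 ± 0.551 FPKM in tumor and 15.7 ± 0.981 in control, followed by Gjc1 with 10.4 ± 1.69 FPKM in tumor and 8.60 ± 0.343 in control (SD, n = 3 each). The levels of Gja4 and Gjc1 did not overlap in either group. Gjc3 followed with 2.92 ± 0.545 FPKM in tumor and 1.5 ± 0.903 in control, and Gja5 with 1.88 ± 0.327 in tumor and 1.1 ± 0.528 FPKM in control. In control these neighbors lay within each other's spread, whereas in tumor the lowest Gjc3 value, 2.30 FPKM, was above the highest Gja5 value, 2.08 FPKM. Gjb2 was the lowest, at 0.357 ± 0.197 FPKM in tumor and 0.343 ± 0.185 in control.

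**Figure D1:**
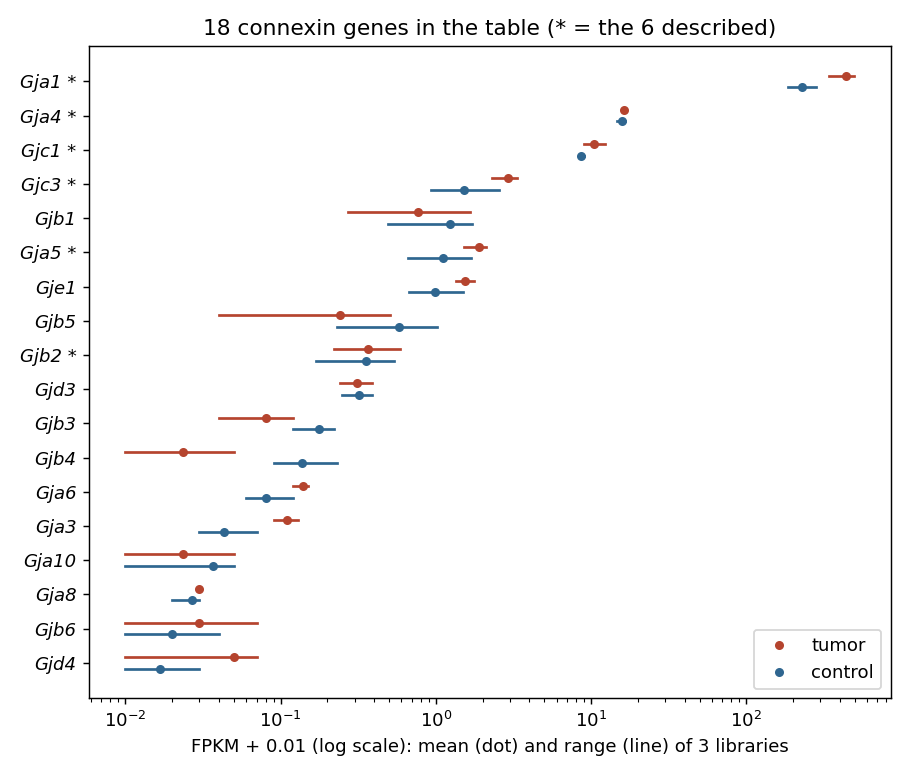
Deposited FPKM of 18 of the 19 connexin genes in the table, with 0.01 added so that values of 0 can stand on a log axis; dots are means and lines the range of 3 tumor (upper) and 3 control (lower) libraries, ordered by the control mean. Gja1, at 185.8 FPKM or more in every library, lies more than 10 times above every other connexin shown in both groups, and its tumor and control ranges do not meet.

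The Gja1 gene lies on the plus strand at chr10:56377300-56402513 of GRCm38.p6 in the deposited annotation, while a RefSeq table of the same build ends it at 56390419. All of its estimated counts were given to a single transcript, NM_010288.3. The long noncoding gene Gm36460 lies within the deposited span. Of the 10445 distinct stretches of 50 bases in the GENCODE transcripts of Gja1, the length of the reads, 12 also occur in transcripts of other genes and none in another connexin. The 250 bases before its RefSeq start are printed because Gja1 is the member with the largest separation between groups, with those of Gja4, its partner gene in the oocyte, for comparison. Capitals mark the AP-1 motif TGANTCA, the site of the Fos and Jun factors, in the Gja1 window and the GC box GGGCGG, bound by Sp1, in the Gja4 window. Both are RefSeq sequences of GRCm38.p6 in the annotated direction of the gene, Gja1 at chr10:56377050-56377299 on the plus strand and Gja4 at chr4:127314040-127314289 on the minus strand. Bases just after the Gja4 start were found in a GENCODE transcript of Gja4. Those just after the Gja1 start were not found in a GENCODE transcript of Gja1, so its start and direction rest on the annotation.
Gja1: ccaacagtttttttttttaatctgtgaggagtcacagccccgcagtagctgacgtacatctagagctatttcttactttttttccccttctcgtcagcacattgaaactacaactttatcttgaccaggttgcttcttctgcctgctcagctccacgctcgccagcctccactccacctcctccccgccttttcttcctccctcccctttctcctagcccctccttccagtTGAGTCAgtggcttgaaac
Gja4: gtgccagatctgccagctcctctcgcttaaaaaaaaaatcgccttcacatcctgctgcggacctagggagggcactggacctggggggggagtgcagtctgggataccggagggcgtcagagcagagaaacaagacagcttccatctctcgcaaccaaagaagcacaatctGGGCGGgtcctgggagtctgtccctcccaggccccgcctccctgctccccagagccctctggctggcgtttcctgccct
The AP-1 match lies 19 to 13 bases before the annotated Gja1 start and shares its first bases with an E-box match (CANNTG) 23 to 18 bases before that start. Searched on both strands, the AP-1 letters occur in 6.75% of 32841 promoter windows of this length, the E-box letters in 66.2% and the GC box letters in 32.7%. Among the 5 members with a window in the RefSeq promoter table, only that of Gja1 held the AP-1 letters, the windows of Gja4, Gja5 and Gjb2 held a GC box, and those of Gja1, Gjb2 and Gjc3 held an E-box. No member's window held the SF-1 site AAGGTCA (4.08% of windows) or TATAAA (12.4%). Gjc1 was not among the sequences used here.

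Gja1 had 987, 1426 and 1523 CPM in tumor replicates 1, 2 and 3, and 590.2, 864 and 686 CPM in control replicates 1, 2 and 3. Every tumor library was above every control library, the lowest tumor value being that of replicate 1 and the highest control value that of replicate 2. Groups without overlap occurred in 38.1% of all tested genes and in 19.8% with tumor higher, and Gja1 was the only one of the 6 members without overlap. Its log2 fold change was 0.88 ± 0.22 (SE), a fold of 1.84 with a 95% interval of 1.28 to 2.63, and its adjusted p in edgeR's test was 0.0572. By unadjusted p it stood at place 1520 of 15787. With the DESeq2 Wald test it had 0.89 with an adjusted p of 0.000650. The authors' deposited table, also made with DESeq2, lists Gja1 with a log2 fold change of 0.89 and a q of 0.00104, in a table where 14.7% of genes have a q under 0.05. Over 13 alternative fits its log2 fold change stayed between 0.76 and 1.08. It passed edgeR's threshold when tumor replicate 1 was left out (1.05, adjusted p = 0.0293) and when control replicate 2 was left out (1.08, adjusted p = 0.0357). Without any one of the other 4 libraries it did not pass, with adjusted p between 0.141 and 0.184, and limma-trend on log2 FPKM with 1 or 0.1 added gave adjusted p of 0.0480 and 0.0474.

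**Figure D2:**
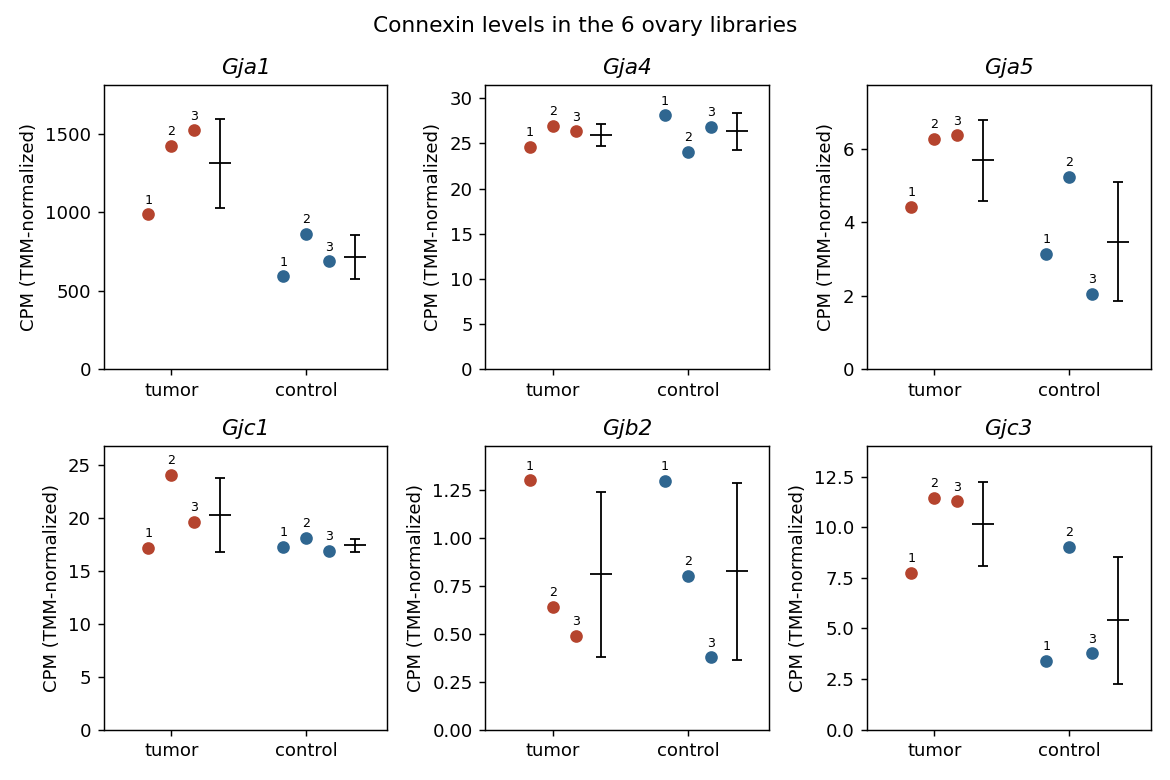
TMM-normalized CPM of each connexin in the 3 tumor (red, left) and 3 control (blue, right) libraries, numbered by replicate, with mean and SD beside each group; the vertical scales differ between genes and start at 0. The groups separate for Gja1, while control replicate 2 lies among the tumor values for Gja5 and Gjc3.

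Set against Foxl2, a transcription factor gene of granulosa cells, Gja1 was also higher. These ratios to single markers were chosen after the levels had been seen and carry no test. The CPM of Gja1 was 6.34, 6.36 and 6.55 times that of Foxl2 in tumor replicates 1, 2 and 3, and 2.77, 5.29 and 3.07 times that of Foxl2 in control replicates 1, 2 and 3. The tumor ratios lay close together and above all control ratios, among which replicate 2 was nearest to them. Relative to the summed CPM of 12 granulosa markers, Gja1 came to 29.1%, 24.8% and 26.2% in tumor and to 11.9%, 22.2% and 14.0% in control, again without overlap. That sum ranged from 3391 to 5808 CPM in tumor and from 3900 to 4947 CPM in control. A large part of it was Inha, at 1660 to 3078 CPM in tumor and 2596 to 3198 CPM in control. Foxl2 itself differed by 0.03 on the log2 scale (adjusted p = 0.937), a value whose sign turned without tumor replicate 2 (-0.04), tumor replicate 3 (-0.07) or control replicate 2 (-0.06). The ratio to Foxl2 thus largely repeats the group difference of Gja1. Of the 12 granulosa markers 1 rose and 11 did not pass, at a list median of 0.48. The one that rose was Esr2, which encodes an estrogen receptor of granulosa cells, with 1.12 ± 0.12 (SE) and an adjusted p of 0.0248, and its call ended without tumor replicate 2 or 3 or control replicate 1 or 3, where adjusted p lay between 0.0620 and 0.136. Kitl, the kit ligand gene, and Fst, the follistatin gene, differed by 0.62 and 0.63 on the log2 scale, without overlap between the groups (adjusted p = 0.0795 and 0.0823). Both passed with the DESeq2 Wald test (0.0125 and 0.0113) and without tumor replicate 1 (0.0265 and 0.0395), fits in which 4 of the 12 granulosa markers rose. Esr2, Inhbb and Inhba had log2 fold changes of 1.12, 1.16 and 1.48, above the 0.88 of Gja1. In edgeR's test Inhbb and Inhba did not pass (adjusted p = 0.111 and 0.143). The other granulosa markers had log2 fold changes below that of Gja1. The order against granulosa cells therefore depends on the marker chosen.

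Gja4, on the minus strand at chr4:127311420-127314039, encodes the connexin of the oocyte surface and of endothelium. It had 24.6, 27.0 and 26.3 CPM in tumor replicates 1, 2 and 3, and 28.1, 24.1 and 26.9 CPM in control replicates 1, 2 and 3. The groups overlapped fully, and the coefficient of variation was 4.77% in tumor and 7.84% in control, both below those of Gja1, 21.8% in tumor and 19.5% in control. The difference was -0.02 ± 0.11 (SE) on the log2 scale (edgeR, adjusted p = 0.916), and its 95% interval ran from -0.28 to 0.23, that is from a fold of 0.826 to one of 1.18. After an offset for gene length its sign turned, to 0.21 with an adjusted p of 0.382. All of its counts belonged to 1 transcript, and none of its 1636 stretches of 50 bases occurred in another gene.

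Of 12 oocyte markers, 5 rose and 7 did not pass, at a median of 0.60 on the log2 scale, and their summed level was 538 to 685 CPM in tumor and 344 to 462 CPM in control. Gdf9, an oocyte growth factor gene, rose by 0.76 ± 0.15 (SE; adjusted p = 0.0396), as did Bmp15, its paralog, by 0.99 ± 0.17 (adjusted p = 0.0382). The others that rose were Dazl, which encodes an RNA-binding protein of germ cells, by 1.34, and Ooep and Nlrp5, genes of the subcortical maternal complex, by 0.68 and 0.92. Without tumor replicate 2 or 3, or without control replicate 1 or 3, none of the 5 passed, with adjusted p between 0.0889 and 0.167 and log2 fold changes of 0.64 to 1.46. Without control replicate 2, Gdf9 and Nlrp5 also did not pass (adjusted p = 0.0515 and 0.0698). With the DESeq2 Wald test 8 of the 12 rose. The ratio of Gja4 to Gdf9 in CPM was 0.166, 0.221 and 0.193 in tumor replicates 1, 2 and 3, and 0.392, 0.332 and 0.279 in control replicates 1, 2 and 3. All tumor ratios were below all control ratios. This follows from Gdf9 itself, at 122.0 to 148.0 CPM in tumor and 71.8 to 96.3 CPM in control, and adds nothing to it. Zp3, from the same list, overlapped between the groups, at 69.4 to 95.6 CPM in tumor and 60.2 to 73.6 CPM in control. Against Cdh5, the VE-cadherin gene of endothelium, the order turned round, with ratios of 0.252, 0.229 and 0.211 in tumor and 0.191, 0.179 and 0.180 in control. Cdh5 itself was at 97.6 to 124.9 CPM in tumor and 134.2 to 149.3 CPM in control, with an adjusted p of 0.108. Emcn, the endothelial marker with the smallest p, was also lower without overlap, at 29.3 to 36.3 CPM in tumor and 43.2 to 46.1 CPM in control. Its adjusted p in edgeR's test was 0.0587. Dll4, Pecam1 and Tie1 were lower without overlap as well. Kdr, also an endothelial marker, was the only one that went the other way without overlap. It stood at 81.7 to 95.9 CPM in tumor and 73.9 to 78.3 CPM in control. Of the 10 endothelial markers 4 were higher and 6 lower in tumor, so the order against endothelium depends on the marker chosen. None of 10 endothelial markers passed the test, at a median of -0.16 on the log2 scale and a summed level of 479 to 502 CPM in tumor and 526 to 540.3 CPM in control. With the DESeq2 Wald test 1 of the 10 fell, and without tumor replicate 1 a single one rose. How much of the Gja4 RNA came from oocytes and how much from vessels was not tested.

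**Figure D3:**
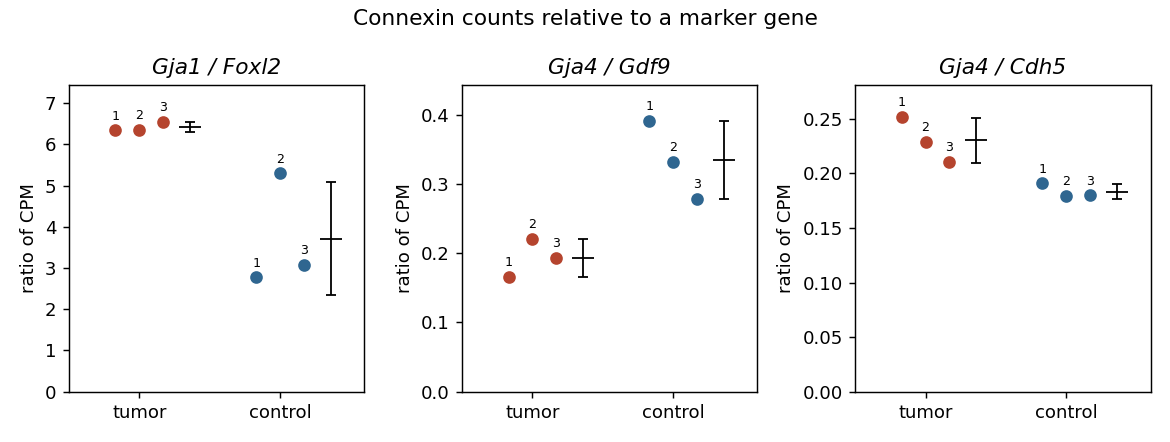
Ratio of CPM of Gja1 to Foxl2, of Gja4 to Gdf9 and of Gja4 to Cdh5 in the 3 tumor (red, left) and 3 control (blue, right) libraries, numbered by replicate, with mean and SD. The tumor ratios lie above control for Gja1 to Foxl2 and Gja4 to Cdh5 and below control for Gja4 to Gdf9, without overlap in any panel. Some other markers of the same cell types moved differently, so the order depends on the marker chosen.

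Gja5, on the plus strand at chr3:97032402-97053634, encodes a connexin of arterial endothelium. It was measured at 4.42, 6.29 and 6.38 CPM in tumor and at 3.13, 5.24 and 2.05 CPM in control, in replicates 1, 2 and 3 of each group. Control replicate 2 lay above tumor replicate 1, so the groups overlapped, and the estimated counts behind these values ran from 38.0 to 118 reads. The difference was 0.71 ± 0.38 (SE) on the log2 scale (edgeR, adjusted p = 0.257), with a 95% interval of -0.21 to 1.63. It was 1.18 without control replicate 2 (adjusted p of 0.0678) and 0.46 without control replicate 3 (0.479). Its counts were divided between the transcripts NM_001271628.1 and NM_008121.3. The second took 47.7% to 82.5% of the gene's counts in tumor and 7.26% to 100% in control, ranges that overlapped. Of the 5742 stretches of 50 bases in its GENCODE transcripts, 15.3% also occur in other genes, most of them in a transcript of Zfp697. The gene also overlaps the long noncoding gene 4930573H18Rik, and nothing in the labels says whether the reads kept their strand.

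Gjc1, on the minus strand at chr11:102799477-102819686, encodes Cx45. It was measured at 17.1, 24.0 and 19.6 CPM in tumor and at 17.2, 18.1 and 16.8 CPM in control. Tumor replicates 2 and 3 were above all control libraries and tumor replicate 1 lay among them. The difference was 0.22 ± 0.15 (SE) on the log2 scale (edgeR, adjusted p = 0.370), with a 95% interval of -0.15 to 0.59, and it was 0.08 without tumor replicate 2 (adjusted p of 0.786). Its counts were spread over 7 transcripts, of which NM_001159382.1 held 26.8% to 42.7% in tumor and 24.6% to 46.8% in control. In the same libraries 3 of 8 smooth muscle and pericyte markers fell and 5 did not pass, at a median of -0.56 on the log2 scale and a summed level of 1519 to 2416 CPM in tumor and 2846 to 3168 CPM in control. Those that fell were Des, the desmin gene, by 1.40, Cnn1, the calponin gene, by 1.07, and Tagln, the transgelin gene, by 0.97 on the log2 scale, and none of these passed without tumor replicate 2 or 3 or without control replicate 1 or 3 (adjusted p of 0.0613 to 0.156). Myh11, the smooth muscle myosin gene, had -0.44 (adjusted p = 0.164). With the DESeq2 Wald test, and without tumor replicate 1, 4 of the 8 fell. The part of these markers in the Gjc1 values was not tested.

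Gjc3, on the minus strand at chr5:137950992-137963098, encodes the glial Cx29. It was measured at 7.74, 11.5 and 11.3 CPM in tumor and at 3.4, 9.04 and 3.77 CPM in control. Control replicate 2 again lay above tumor replicate 1, and the other control libraries were below all tumor libraries. The difference was 0.91 ± 0.42 (SE) on the log2 scale (edgeR, adjusted p = 0.198), with a 95% interval of -0.10 to 1.92. Without control replicate 2 it was 1.54 with an adjusted p of 0.0297, a call that no other fit gave. None of the 6 Schwann cell markers tested passed, their median log2 fold change was -0.28, and the sum of all 7 was 142 to 175 CPM in tumor and 155 to 183 CPM in control. Without tumor replicate 1, 2 of the 6 fell. The part of Schwann cells in the Gjc3 values was not tested. Of the 4306 stretches of 50 bases in its GENCODE transcripts, 2.07% also occur in transcripts of other genes.

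Control replicate 2 was thus the highest control library for Gja1, Gja5, Gjc1 and Gjc3, though for Gjc1 only narrowly, at 18.1 CPM against 17.2 and 16.8 CPM. It was also set apart by Cyp17a1, the theca enzyme of androgen synthesis, at 2669 CPM against 14.3 and 22.1 CPM in control replicates 1 and 3. In tumor Cyp17a1 stood at 37.5, 1533 and 2273 CPM in replicates 1, 2 and 3, and tumor replicate 1 was the lowest tumor library for the same 4 connexins. Of 6 theca markers 2 rose and 4 did not pass, at a median of 0.65 on the log2 scale. Both that rose, Hhip by 1.18 and Ptch1 by 0.78, are targets of hedgehog signaling, and neither passed without tumor replicate 2 or 3 or without control replicate 1 or 3 (adjusted p of 0.0732 to 0.142). Without tumor replicate 1, 3 of the 6 rose. The summed level of the list was 479, 2209 and 2969 CPM in tumor and 428, 3063 and 450 CPM in control. In control replicate 2 most of that sum was Cyp17a1. Insl3, from the same list, was also highest there among control libraries, at 76.1 CPM against 34.5 and 39.7 CPM. Hhip, Ptch1, Gli1 and Nr2f2 were instead lowest there, with Ptch1 at 90.2 CPM against 111.7 and 104.6 CPM in control replicates 1 and 3. The theca markers thus did not move together in control replicate 2. The part of theca cells in the values of these connexins was not tested.

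Gjb2, on the minus strand at chr14:57098602-57104702, encodes the epithelial Cx26 and rested on few reads. Its estimated counts were 25, 12 and 9 in tumor and 24, 15 and 7 in control. An exact Poisson interval (95%) for the highest, 25, ran from 16.2 to 36.9 counts, and for the lowest, 7, from 2.81 to 14.4, covering counting error only. In CPM these were 1.30, 0.640 and 0.491 in tumor and 1.30, 0.802 and 0.377 in control. The values of the groups overlapped, each running from about the same highest to about the same lowest value. The difference was -0.02 ± 0.57 (SE) on the log2 scale (edgeR, adjusted p = 0.982), with a 95% interval of -1.40 to 1.35, which leaves folds of 0.380 to 2.55 within it. The 8 epithelial markers, of which none passed and whose median log2 fold change was -0.64, summed to 746, 193 and 134 CPM in tumor and to 662, 647 and 326 CPM in control. Without tumor replicate 1, 6 of these 8 markers fell. Their part in the Gjb2 values was not tested.

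**Figure D4:**
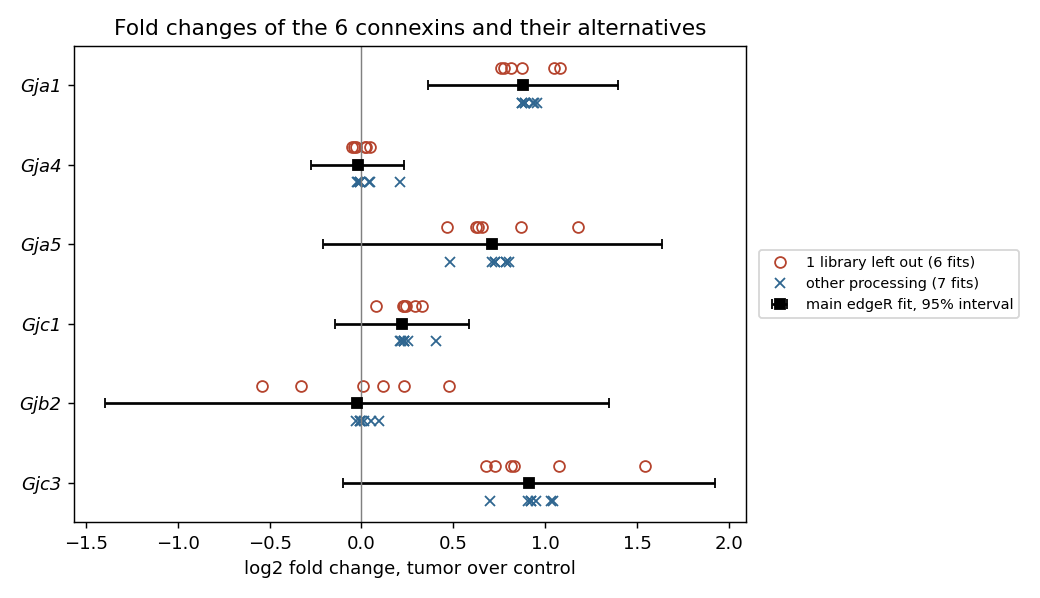
Log2 fold change (tumor over control) of each connexin: squares with 95% intervals are the edgeR fit on all 6 libraries, open circles the 6 fits with 1 library left out, and crosses the 7 fits with other processing. All 14 values of Gja1, Gja5, Gjc1 and Gjc3 are above 0, while those of Gja4 and Gjb2 fall on both sides of 0.

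The rest of the connexin family was low. Of the 13 other connexin genes in the table, 5 had enough counts to be tested, none passed, and their median log2 fold change was -0.24. Gje1 had a log2 fold change of 0.57 ± 0.36 (SE) and Gjb5 one of -1.38 ± 0.88 (SE), with adjusted p of 0.331 and 0.336. Pannexins form channels in the membrane without docking into gap junctions. Neither of the 2 tested pannexin genes passed, with Panx1 at 18.9 ± 1.63 CPM in tumor and 22.5 ± 0.776 CPM in control (SD, n = 3 each; adjusted p of 0.194).

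Of 10 genes whose products bind or move connexins 1 fell and 9 did not pass, at a median of 0.07 on the log2 scale. Ccn3, a matricellular protein gene whose product binds Cx43, fell to 3.59, 1.6 and 1.58 CPM in tumor, against 7.35, 7.17 and 11.7 CPM in control, which is -1.95 ± 0.42 (SE) on the log2 scale (adjusted p = 0.0457). That call ended without tumor replicate 2 or 3 or any 1 control library, with adjusted p between 0.0522 and 0.158 at log2 fold changes of -2.03 to -1.64. Cnst, the gene of consortin, which takes part in moving connexins to the membrane, stood at 76.0, 49.5 and 54.0 CPM in tumor and 32.4, 40.8 and 35.1 CPM in control. These groups did not overlap, and the difference of 0.73 ± 0.19 (SE) had an adjusted p of 0.0604. Tjp1, whose product ZO-1 anchors Cx43, had 0.35 ± 0.11 (SE) with an adjusted p of 0.0837. With the DESeq2 Wald test both Cnst and Tjp1 passed (adjusted p = 0.00643 and 0.0209), and Cnst also passed without tumor replicate 1 (0.52, adjusted p = 0.0446).

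Among genes of the signals that pass through or close follicular gap junctions, none of 7 genes of meiotic arrest passed edgeR's test with all 6 libraries, at a median of 0.08. Gpr3, the oocyte receptor that keeps cyclic AMP high, was at 3.17, 4.69 and 3.54 CPM in tumor and 1.89, 1.6 and 1.94 CPM in control, without overlap, with an adjusted p of 0.0559. It passed with the DESeq2 Wald test (adjusted p = 0.0348), with limma-trend on log2 FPKM plus 1 or plus 0.1 (0.0438 and 0.0452) and without tumor replicate 1 (1.18, adjusted p = 0.0407). Nppc, which encodes the granulosa peptide that raises cyclic GMP, had a log2 fold change of 0.97 ± 0.34 (SE), and Impdh1, an enzyme of guanine nucleotide synthesis, one of -0.60 ± 0.32 (SE), with adjusted p of 0.113 and 0.263. Nppc passed with the DESeq2 Wald test (adjusted p = 0.0440). Of 8 genes of LH and EGF receptor signaling, 1 fell and 7 did not pass, at a median of -0.24. Mapk3, the gene of the kinase ERK1, fell to 202 ± 5.58 CPM in tumor, against 300 ± 34.4 CPM in control (SD, n = 3 each; adjusted p = 0.0388). That call ended without tumor replicate 2 or 3 or control replicate 1 or 3, with adjusted p between 0.105 and 0.148 at log2 fold changes of -0.58 to -0.46. After the offset for gene length Mapk3 had -0.35 with an adjusted p of 0.151. Ereg, an EGF-like ligand gene of ovulation, had a log2 fold change of -1.31 and Fshr, the receptor gene of follicle-stimulating hormone, one of 0.87, with adjusted p of 0.0828 and 0.156. Fshr passed without tumor replicate 1, at 1.19 (adjusted p = 0.0149). Of 7 luteal markers 2 fell and 5 did not pass, at a median of -1.41. Akr1c18, the enzyme that breaks down progesterone, fell to 2.96, 1.23 and 0.436 CPM in tumor, against 200.1, 417 and 47.0 CPM in control, and Ptgfr, the receptor gene of prostaglandin F, fell by 3.68 ± 0.61 (SE) on the log2 scale (adjusted p = 0.0366 and 0.0385). Neither passed without tumor replicate 2 or 3 or without control replicate 1 or 3 (adjusted p of 0.0939 to 0.142). Cyp11a1, an enzyme of steroid synthesis in the corpus luteum, stood at 428, 2500 and 2734 CPM in tumor and at 7326, 6672 and 7637 CPM in control (adjusted p of 0.112), and it passed with the DESeq2 Wald test (-1.92, adjusted p = 0.00690) and without tumor replicate 1 (-1.46, adjusted p = 0.0149). In these fits 3 and 4 of the 7 luteal markers fell. None of 6 oviduct, 8 adipocyte or 6 macrophage markers passed, with medians of -0.35, 2.71 and -0.20. With the DESeq2 Wald test 6 adipocyte markers rose and 1 macrophage marker fell, and without tumor replicate 1, 5 oviduct and 2 macrophage markers fell.

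The genes whose log2 CPM followed each connexin most closely over the 6 libraries were named by Pearson's r among 11926 or 11927 genes with an average log2 CPM of at least 3. These are descriptions, since the 6 points share the tumor and control labels and the composition of each library. For Gja1 they were Phtf2, Larp1 and Utp25, each with r of 0.999, and 10.7% of the genes had an r above 0.9 with it. Phtf2, Larp1 and Utp25 were higher in tumor by 0.56, 0.44 and 0.57 on the log2 scale, and like Gja1 did not pass (adjusted p = 0.0820, 0.0790 and 0.0718). All 3, again like Gja1, passed with the DESeq2 Wald test, without tumor replicate 1 and without control replicate 2 (adjusted p of 0.0139 to 0.0458). Since these 3 genes were picked for following Gja1 over the same libraries, the shared calls are partly a consequence of that choice. For Gja4 they were Arl6ip4, Gpx7 and Wipi1, with r of 0.991, 0.989 and 0.988, and 1.46% of genes were above 0.9. Kcnd3, Thoc1 and Cmc4 followed Gja5, with r of 0.996, 0.994 and 0.991. Fzd5, Reck and Gli2 followed Gjc1, with r of 0.992, 0.987 and 0.986. Large2, Snn and Spata7 followed Gjb2, with r of 0.975, 0.968 and 0.965. Ppp1r12a, Resf1 and Epas1 followed Gjc3, with r of 0.997, 0.996 and 0.995, and 6.09% of genes were above 0.9.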

How the data were processed

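Ovary RNA of 3 tumor and 3 control libraries, grouped by sample title, was read from 1 end over 50 bases (MGIseq500), per the labels' protocols. HISAT2 2.0.4, Bowtie2 2.2.5, RSEM 1.2.12 and GRCm38.p6 are listed in the submitters' processing notes, with no role or order. The authors deposited estimated counts per gene and per transcript and FPKM per gene, per the file headers; 39.2% of gene counts above 0 were not whole. The authors also deposited log2 fold changes with p-values and q-values from DESeq2, per the file headers. A further 36 columns of per-library values were not used.

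Estimated counts were rounded, filtered with filterByExpr, scaled by TMM and tested over all genes with edgeR 4.0.16 (quasi-likelihood, robust, group only; R 4.3.3) with Benjamini-Hochberg adjustment at 0.05. SE is the log2 fold change over the square root of F, and 95% intervals use the test's degrees of freedom. limma 3.58.1, DESeq2 1.42.0, a loess offset for gene length (span 0.5, length implied by counts and FPKM), other scaling, no filter, a replicate block and leaving out each library were alternatives. No 2 libraries agreed within sampling noise (chi-square per degree of freedom of at least 12.6). On simulated counts for this comparison, in 15616 genes, edgeR recovered 70% of the genes given a 4-fold change and 41% of those given a 2-fold one.

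The 6 members and the 16 gene lists were chosen with earlier results of these data known. Named genes were all members, up to 3 genes of smallest p per list, defining markers of cell types, and the 3 genes most like each member. Nlrp5 falls outside this rule and was named with the other oocyte genes that passed. Further list genes outside it, among them Zp3, Inha, Inhba, Inhbb, Insl3 and Nr2f2, were named after their values had been seen. The values of 1 further connexin and 1 Schwann cell marker are not reported here.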

Additional observations from a re-analysis of the deposited data

How the results depend on the processing

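With all 6 libraries, 1217 of 15787 genes passed edgeR's threshold; the DESeq2 Wald test called 3012 and an offset for gene length left 162, and leaving out 1 library gave between 0 and 2605. No gene passed without tumor replicate 3 or control replicate 1 (3761 and 3137 with an unadjusted p under 0.05), 3 passed without tumor replicate 2 and 5 without control replicate 3, while 2605 passed without tumor replicate 1 and 2274 without control replicate 2. Deviations from the group means correlated at 0.24, -0.21 and 0.53 for same-numbered libraries and between -0.56 and 0.35 for the others. With 3 libraries per group, these values cannot tell whether the replicate numbers pair the libraries. With the replicate number as a block, 0 genes passed edgeR's test (4233 with an unadjusted p under 0.05). Gja1 then had 0.87 ± 0.15 (SE), with an unadjusted p of 0.0025 and an adjusted p of 0.0939. Without the block it had 0.88 ± 0.22 (SE), with an unadjusted p of 0.0055 in edgeR's test. Log2 fold changes with 1 library left out ranged from 0.76 to 1.08 for Gja1, -0.050 to 0.048 for Gja4, 0.46 to 1.18 for Gja5, 0.08 to 0.33 for Gjc1, -0.54 to 0.48 for Gjb2 and 0.68 to 1.54 for Gjc3, and from -0.074 to 0.19 for Foxl2 and -0.20 to 6.17 for Cyp17a1. Gja1 passed the threshold with the DESeq2 Wald test (0.89) and with limma-trend on log2 FPKM plus 1 (0.93) or plus 0.1 (0.94). The sign of the small values of Gja4 and Gjb2 turned with the length offset (0.21 and 0.10) and with limma-trend on log2 FPKM plus 1 (0.042 and 0.014) or plus 0.1 (0.045 and 0.051); the cause was not tested. No other of these 7 fits with all 6 libraries changed the direction or the call of a connexin. Of 15 marker and pathway genes called with all libraries, the length offset ended 12 calls, the block all 15, and DESeq2 and limma-trend none. Another 20 named genes that did not pass with all libraries were followed through these fits. Of them, 10 passed with the DESeq2 Wald test, 9 without tumor replicate 1, 3 without control replicate 2 and 1, Gpr3, with limma-trend. Counts of 7 to 25 reads limit what can be seen of Gjb2.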
